A study of Mus musculus with 8 samples.

Results

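The small leucine-rich proteoglycans described here are 8 genes: decorin (Dcn), biglycan (Bgn), fibromodulin (Fmod), lumican (Lum), osteomodulin (Omd), osteoglycin (Ogn), prolargin (Prelp) and asporin (Aspn). They were chosen by symbol, and all 8 were found among the 43346 genes of the count table. RNA sequencing had been done on bone fractions enriched for osteocytes, the cells buried in mineralised bone. The fractions came from the femur (3 libraries), the frontal bone (3 libraries) and the parietal bone (2 libraries) of C57BL/6 mice aged 12 weeks, with no treatment named for any group. The number after a bone (1, 2 or 4) is that of the library's description. Whether separate animals or pooled ones gave the libraries is not stated in the labels. The p-values therefore measure no more than the spread among these libraries. The question was which transcripts of osteocytes differ by bone, with the frontal and parietal bones of the skull vault together called calvaria here and the femur as the long bone.

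Small leucine-rich proteoglycans are secreted proteins whose curved leucine-rich repeats lie along collagen fibrils. They set the width and spacing of fibrils as these form, and several bind transforming growth factor beta or the enzymes that cross-link collagen. Class I members (Dcn, Bgn) carry chondroitin or dermatan sulfate chains and Aspn of that class usually carries none, class II members (Fmod, Lum, Omd, Prelp) carry keratan sulfate or sulfated tyrosines, and Ogn belongs to class III. In bone they are made by osteoblasts, young osteocytes and the connective tissue cells around bone.

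Most of the 8 genes lie beside a relative. By the GENCODE M21 annotation on GRCm38, Dcn and Lum follow each other on chromosome 10 with 46984 bases between them, and Prelp and Fmod lie 115839 bases apart on chromosome 1. Aspn, Omd and Ogn follow each other on chromosome 13 with gaps of 14896 and 15223 bases, all on the plus strand and inside Cenpp, a centromere protein gene on the opposite strand. The exons of Cenpp share 0, 0 and 7 bases with those of Omd, Ogn and Aspn. Bgn lies on the X chromosome (chrX:73483602-73495933, plus strand). The other spans are Dcn chr10:97479609-97518143, Lum chr10:97565128-97572703, Aspn chr13:49544443-49567565, Omd chr13:49582462-49592822, Ogn chr13:49608046-49624501 and Fmod chr1:134037254-134048277 on the plus strand, and Prelp chr1:133910304-133921414 on the minus strand. The strand setting of the counting is not given in the sources used here. Prelp shares 350 exon bases with an antisense gene, Gm15851, which had 0 counts, and reads of such a pair cannot be told apart without strand.

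Promoter sequences were held for 6 of the 8 genes (RefSeq, GRCm38.p6), and 4 are printed, each the 250 bases before the start of transcription, 5′ to 3′. Bgn and Fmod are shown because both read lower in both skull bones than in femur, and Omd and Ogn because the ratio of these neighbours on chromosome 13 differed between calvaria and femur. Capitals mark every match, on either strand, to the RUNX core ACCACA, the TATA box TATAAA and the GC box GGGCGG.
Bgn, chrX:73483351-73483600, plus strand: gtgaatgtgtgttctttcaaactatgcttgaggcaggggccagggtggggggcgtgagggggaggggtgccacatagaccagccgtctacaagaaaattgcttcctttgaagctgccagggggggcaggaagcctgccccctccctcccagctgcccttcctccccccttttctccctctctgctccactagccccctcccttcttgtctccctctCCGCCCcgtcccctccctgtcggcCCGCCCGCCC
Fmod, chr1:134037004-134037253, plus strand: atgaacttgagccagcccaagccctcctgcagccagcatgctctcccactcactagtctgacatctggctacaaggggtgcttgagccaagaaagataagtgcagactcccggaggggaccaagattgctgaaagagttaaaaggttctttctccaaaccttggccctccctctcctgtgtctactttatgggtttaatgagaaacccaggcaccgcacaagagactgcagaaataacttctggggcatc
Omd, chr13:49582212-49582461, plus strand: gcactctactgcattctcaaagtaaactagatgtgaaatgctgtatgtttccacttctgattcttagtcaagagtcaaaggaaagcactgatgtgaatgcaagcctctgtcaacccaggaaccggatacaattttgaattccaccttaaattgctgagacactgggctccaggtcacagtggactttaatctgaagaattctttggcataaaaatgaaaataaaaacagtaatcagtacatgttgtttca
Ogn, chr13:49607765-49608014, plus strand: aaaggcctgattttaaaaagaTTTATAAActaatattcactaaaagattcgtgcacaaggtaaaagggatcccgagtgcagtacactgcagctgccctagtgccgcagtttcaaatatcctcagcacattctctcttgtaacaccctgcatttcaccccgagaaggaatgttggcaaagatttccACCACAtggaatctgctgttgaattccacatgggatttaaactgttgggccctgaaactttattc

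Positions are those of a match's first base, counted back from -1 just before the start. Bgn held 3 GC boxes on the minus strand, at -34, -10 and -6, of which those at -10 and -6 overlap. Ogn held a RUNX core at -65 and a TATA box on each strand at -229 and -227, which overlap. Fmod and Omd had no match to these letters in this window. Among all 32851 promoters of the same length, 14.0% held the RUNX core, 12.4% the TATA box and 32.7% the GC box, so each of these matches is common. The upstream bases were 64.4% G or C for Bgn, 51.2% for Fmod, 42.0% for Ogn and 38.4% for Omd. The matches are a description of the letters and were not set against the expression values.

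Gene counts totalled 6259229 to 13461622 per library. The osteocyte gene Dmp1, which codes for a matrix protein, was at 35310 CPM (counts relative to the library total, on a scale corrected for library composition by the trimmed mean of M values, TMM) in femur, 489 in frontal bone and 586 in parietal bone. Sost, the osteocyte inhibitor of Wnt signalling, was at 306, 25.9 and 21.8 CPM, so both defining markers were present in all 3 bones and lower in calvaria, by -6.04 and -3.69 in log2 (adjusted p = 5.4e-08 and 1.2e-07 by edgeR). The 16 osteocyte markers held 2.79 to 5.27% of the counts of a femur library and 0.220 to 0.325% of a calvarial one. For 19 osteoblast markers the ranges were 7.04 to 9.72% and 1.37 to 3.59%. Erythroid markers went the other way, with 1.27 to 3.06% in femur and 7.43 to 11.7% in calvaria, as did granulocyte markers, with 1.90 to 4.94% and 7.34 to 9.90%. In bulk samples, fewer cells of a type and less RNA per cell cannot be told apart.

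Together the 8 members held 0.328, 0.253 and 0.248% of all counts in femur libraries 1, 2 and 4. The frontal shares were 0.103, 0.207 and 0.132%, and those of parietal libraries 2 and 4 were 0.291 and 0.296%. The frontal libraries were thus the lowest and did not overlap the other bones, while the parietal libraries lay within the range of the femur. Dcn, Lum and Bgn made up nearly all of it.

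Levels of different genes were compared per kilobase of the principal coding transcript. In femur the order was Dcn with 601 ± 182 CPM per kilobase (SD, n = 3), Lum with 352 ± 43.8, Bgn with 319.9 ± 55.8, Omd with 39.2 ± 8.73, Ogn with 16.1 ± 3.64, Fmod with 14.4 ± 3.78, Aspn with 13.1 ± 7.72 and Prelp with 1.42 ± 0.168. The ranges of Lum and Bgn overlapped, as did those of Ogn, Fmod and Aspn. In parietal bone (n = 2) Dcn had 635 and Lum 493 CPM per kilobase, followed by Bgn with 103, Omd with 85.2, Ogn with 69.8, Aspn with 3.11, Fmod with 1.42 and Prelp with 1.36. In frontal bone (n = 3) Dcn had 278 ± 108 and Lum 200.1 ± 89.7, with overlapping ranges, then Bgn 105 (range 99.8 to 109.7), Ogn 29.7 ± 10.1, Omd 27.2 ± 15.2, Aspn 5.43 ± 3.24, Prelp 2.22 ± 0.944 and Fmod 1.89 ± 1.28. The order of the leading genes rests on the length used. Over all annotated exons, which give Dcn 5838 and Bgn 6099 bases in place of 1758 and 2419, femur Lum stood first with 352 CPM per kilobase, Dcn had 181 and Bgn 127.

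**Figure D1:**
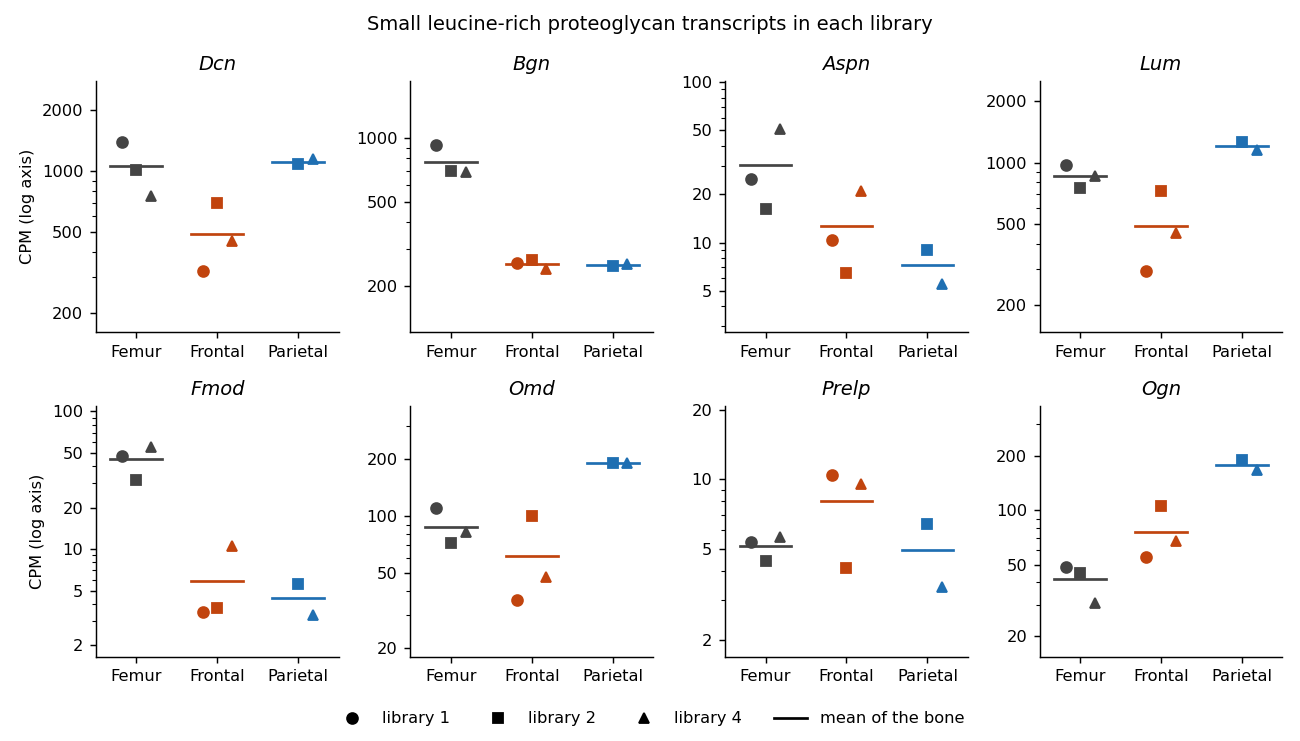
CPM of each member (log axis) in every library by bone, with the mean of each bone as a line. Bgn and Fmod are low in all 5 calvarial libraries and Ogn is high in them, while Dcn and Lum are lower in the frontal libraries than in either other bone and Omd is highest in the parietal libraries, all on the TMM scale. Scaled to osteoblast or osteocyte markers, Bgn, Dcn and Lum no longer read lower in frontal bone than in femur. The medians of all genes were then 2.06 and 2.57. Minus these medians Bgn was -1.59 and -1.60, Dcn -1.17 and -1.12 and Lum -0.93 and -0.85. On the TMM scale these were -1.63, -1.13 and -0.84.

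Bgn, a class I proteoglycan of bone matrix whose loss lowers bone mass in mice, had 929.6, 699 and 693 CPM in the femur libraries. The frontal libraries had 255, 265 and 241 CPM and the parietal libraries 247 and 252 CPM. The 5 calvarial libraries lay within a narrow band, well below every femur library. Bgn was 3.07-fold lower in calvaria than in femur (log2 fold change -1.62, SE 0.12, adjusted p = 7.8e-07 by edgeR's quasi-likelihood test), but read 0.13 (adjusted p = 0.754) with libraries scaled to osteoblast markers and 0.89 (adjusted p = 2.6e-05) with osteocyte markers. These scalings moved the median of all genes from 0.01 to 1.72 and 2.49, and Bgn minus that median was -1.59 and -1.60, as against -1.63 on the TMM scale. Between frontal and parietal bone it differed by 0.03 (95% interval -0.31 to 0.36, adjusted p = 0.932).

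Dcn, the class I relative of Bgn and a main binder of collagen type I, followed another pattern. It had 1395, 1019.9 and 757 CPM in femur, 321, 697 and 450.5 CPM in frontal bone and 1082 and 1149 CPM in parietal bone. Every frontal library lay below every library of the other bones, and the parietal values lay inside the femur range. Dcn fell by 1.11 in frontal against femur on the log2 scale (SE 0.27, adjusted p = 0.00448 by edgeR), although it read 0.89 and 1.46 with the osteoblast and osteocyte scalings. Minus the median of all genes it was -1.17 and -1.12 under these, as against -1.13 on the TMM scale. Calvaria against femur it read -0.52 (adjusted p = 0.0801), and passed as lower without a filter on low counts, without femur library 4 or frontal library 2, and with the trend of counts on gene length and GC content removed (adjusted p = 0.00847 to 0.0294). Parietal against femur it differed by 0.08 (95% interval -0.58 to 0.73, adjusted p = 0.84).

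Aspn, an inhibitor of transforming growth factor beta with an aspartate-rich end, was a minor transcript. It had 24.9, 16.1 and 50.8 CPM in femur, 10.4, 6.50 and 21.1 CPM in frontal bone and 8.94 and 5.53 CPM in parietal bone. Frontal library 4 lay above femur library 2, so frontal and femur values overlapped, while both parietal libraries lay below all femur libraries. Aspn was 4.19-fold lower in parietal bone than in femur (log2 fold change -2.07, SE 0.58, adjusted p = 0.0124 by edgeR), and read -0.75 and 0.32 under the osteoblast and osteocyte scalings. Without parietal library 4 the adjusted p was 0.0769, and without a filter on low counts 0.0563. The frontal call (-1.30, SE 0.49, adjusted p = 0.0461 by edgeR) did not pass without femur library 1 or 4, frontal library 1 or 2, or parietal library 2, with adjusted p-values from 0.0516 to 0.197. It read -0.71 without femur library 4. It also did not pass by DESeq2 (adjusted p = 0.0658), limma-voom (0.0516), with library size only (0.0502) or without a filter on low counts (0.164). In frontal bone Aspn read 0.89 and 1.24 under those 2 scalings. Minus the median of all genes the frontal values were -1.17 and -1.33 (TMM -1.32). The parietal values were -2.14 and -2.09 (TMM -2.07).

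Lum, a keratan sulfate proteoglycan that limits the width of collagen fibrils, had 968, 754 and 864 CPM in femur. It had 294, 727 and 449 CPM in frontal bone and 1259 and 1157 CPM in parietal bone. The bones did not overlap, with frontal lowest and parietal highest, and frontal library 2 came close to femur library 2. Lum fell by 0.81 in frontal against femur on the log2 scale (SE 0.26, adjusted p = 0.0182 by edgeR), but read 1.13 and 1.73 with the osteoblast and osteocyte scalings. Minus the median of all genes it was -0.93 and -0.85 under these, as against -0.84 on the TMM scale. Without femur library 1 or 4 or frontal library 1 or 4 the adjusted p was 0.0515 to 0.0942, and with library size only 0.0569. Parietal against femur it read 0.49 (95% interval -0.13 to 1.11, adjusted p = 0.164). It passed there as higher when these 2 bones were fitted alone (adjusted p = 0.0228), without a filter on low counts (0.0205), without frontal library 2 (0.0395) and under both marker scalings (1.90 and 2.91), and read -0.23 with the length and GC trend removed.

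Fmod, which binds the same site on collagen type I as Lum and also binds lysyl oxidase, had the largest fold change of the 8 on the TMM scale. It had 47.8, 31.9 and 55.0 CPM in femur, from 278, 338 and 471 counts. The frontal libraries had 3.47, 3.73 and 10.5 CPM, from 29, 39 and 75 counts, and the parietal libraries 5.58 and 3.30 CPM, from 73 and 34 counts. No calvarial library came near the femur range. Fmod was 8.79-fold lower in calvaria than in femur (log2 fold change -3.14, SE 0.33, adjusted p = 1.1e-05 by edgeR), and it kept this direction under the osteoblast scaling (-1.35) and the osteocyte scaling (-0.66, adjusted p = 0.0827). In frontal bone alone these were -0.75 and -0.40 and did not pass (adjusted p = 0.0969 and 0.333). Minus the median of all genes, frontal Fmod was -2.81 and -2.98 under these scalings, as against -2.98 on the TMM scale. Frontal against parietal it read 0.36 (95% interval -0.66 to 1.38, adjusted p = 0.651).

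Omd, a keratan sulfate proteoglycan found mainly in mineralised tissue, had 110.0, 72.1 and 82.3 CPM in femur. It had 36.0, 99.99 and 47.6 CPM in frontal bone and 191 and 192 CPM in parietal bone. Both parietal libraries lay above all others, and frontal library 2 lay inside the femur range. Omd was 2.18-fold higher in parietal bone than in femur (log2 fold change 1.12, SE 0.34, adjusted p = 0.0171 by edgeR). Without femur library 2 or 4 or without either parietal library the adjusted p was 0.055 to 0.0804, with the replicate block it was 0.0558, and with the trend of counts on gene length and GC content removed the difference was 0.20 (adjusted p = 0.672). Frontal against femur it read -0.52 (95% interval -1.22 to 0.19, adjusted p = 0.191), or -1.07 without frontal library 2 (adjusted p = 0.000796).

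Prelp, whose basic end binds heparan sulfate, was the least abundant. It had 5.33, 4.44 and 5.60 CPM in femur, 10.4, 4.11 and 9.55 CPM in frontal bone and 6.42 and 3.40 CPM in parietal bone, from 31 to 87 counts per library. The bones overlapped, and frontal libraries 1 and 4 were the highest. Calvaria against femur it read 0.30 (95% interval -0.42 to 1.02, adjusted p = 0.457 by edgeR), or 0.013 without parietal library 2. Frontal against femur it read 0.64 (adjusted p = 0.155), and without frontal library 2 it passed at 0.97 (adjusted p = 0.0169). Under the osteoblast and osteocyte scalings Prelp was called higher in calvaria, at 2.07 and 2.79, where the medians of all genes were 1.72 and 2.49.

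Ogn, the class III member, also called mimecan, was the only one of the 8 that passed as higher in both skull bones on the TMM scale. It had 48.5, 44.8 and 30.8 CPM in femur, 55.2, 105 and 67.8 CPM in frontal bone and 190.3 and 168 CPM in parietal bone. The 3 bones did not overlap, in the order femur, frontal, parietal. Ogn rose 1.85-fold in frontal bone (log2 fold change 0.88, SE 0.23, adjusted p = 0.00704) and 4.34-fold in parietal bone (2.12, SE 0.25, adjusted p = 3.4e-05 by edgeR). Without frontal library 2 the frontal value was 0.58 (adjusted p = 0.0236). It was higher in calvaria than in femur under every alternative run, from 0.96 with the length and GC trend removed to 3.99 under the osteocyte scaling.

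**Figure D2:**
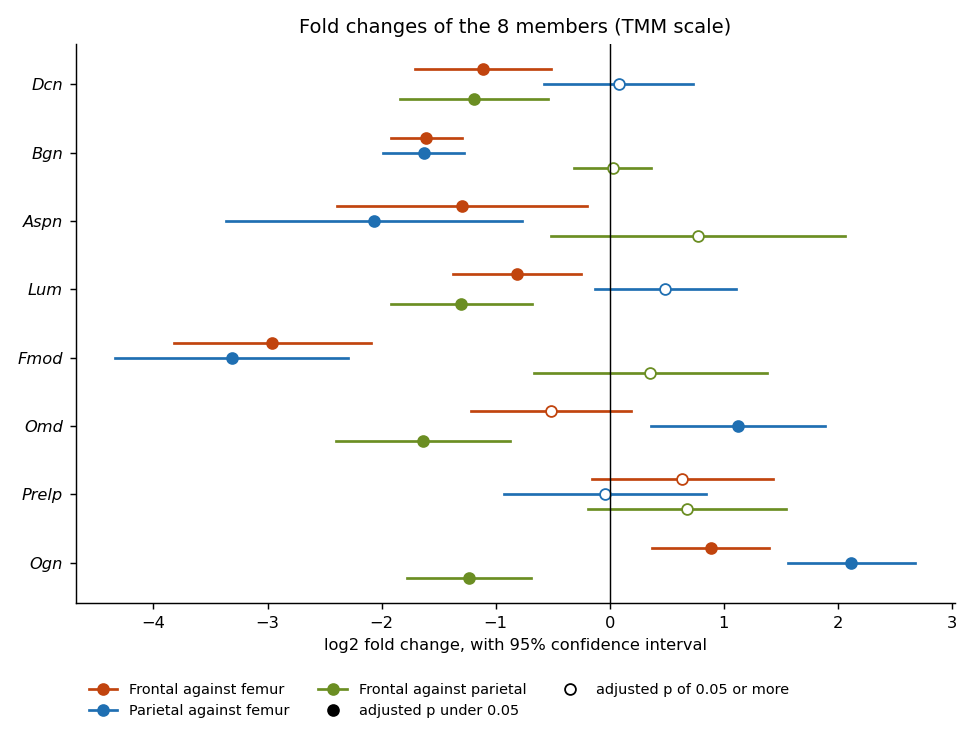
log2 fold changes of the 8 members with 95% intervals (x axis) for each skull bone against femur and for frontal against parietal bone, on the TMM scale, with filled points for an adjusted p under 0.05. Fmod and Bgn lie to the left for both skull bones and Ogn to the right, and the 4 filled frontal against parietal points are Dcn, Lum, Omd and Ogn. With libraries scaled to osteoblast or osteocyte markers, Dcn, Bgn, Lum, Omd and Aspn lie above 0 in frontal against femur. All of these lie below the medians of all genes there, 2.06 and 2.57.

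Read as a group, 1 of 8 members was called higher in calvaria than in femur (Ogn) and 3 lower (Bgn, Fmod and Aspn), and 4 did not pass. Over all 15511 genes tested, 29.6% were called higher and 31.4% lower, so these counts lie near the background. In frontal against femur 1 member was higher, where 27.2% of genes were, and 5 were lower (Dcn, Bgn, Fmod, Lum and Aspn), where 28.5% of genes were. In parietal against femur 2 were higher (Omd and Ogn), beside 27.1% of genes, and 3 lower (Bgn, Fmod and Aspn), beside 28.6%. The median log2 fold change of the 8 members was -0.34, -0.96 and 0.02 in these comparisons, and that of all genes 0.01, 0.02 and 0.01. The comparisons share the femur libraries.

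Under the marker scalings most genes were called higher, and the counts of members called higher lay near or below that background. With the osteoblast list 5 members were higher in calvaria, 5 in frontal and 5 in parietal bone against femur, beside 75.1, 79.9 and 58.8% of all genes. Members lower were 1, 0 and 1, beside 3.59, 2.55 and 3.55%. With the osteocyte list 6, 7 and 6 members were higher, beside 91.3, 90.7 and 88.7%, and 0 lower, beside 2.07, 1.95 and 1.78%.

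The skull bones differed from each other in 4 of 8 members, all lower in frontal bone, where 3.29% of all genes were called lower. None was higher, where 3.91% of genes were. Dcn was 2.28-fold lower (log2 fold change -1.19, SE 0.29, adjusted p = 0.0401), Lum 2.46-fold (-1.30, SE 0.28, adjusted p = 0.0318), Omd 3.12-fold (-1.64, SE 0.35, adjusted p = 0.0321) and Ogn 2.35-fold (-1.23, SE 0.25, adjusted p = 0.0295), all by edgeR. In each of the 4 genes the 3 frontal libraries lay below both parietal libraries. The share of all genes separated in this way was not computed, so no weight is put on it. The median of the 8 members was -0.58, beside -0.02 for all genes. The direction held in every alternative run, with values for Dcn from -1.53 to -0.64. The calls did not hold: 0 of the 4 passed without femur library 2 or frontal library 1 or 4 (adjusted p = 0.0574 to 0.144 by edgeR). Of all genes, 0 were called without femur library 2, without frontal library 1 or with the replicate block. Without frontal library 4, 395 genes were higher and 123 lower. With a parietal library left out only 1 remains, so only the size is given there and not a call. The 4 genes then read -1.61 to -1.10. None passed with the replicate block (adjusted p = 0.0979 to 0.104), under the osteoblast scaling (0.0974 to 0.408) or with the length and GC trend removed (0.0998 to 0.145), where Ogn read -0.69 and Omd -1.05. Fitted on the 2 skull bones alone, Ogn passed and the other 3 did not. With library size only, Dcn did not pass (0.0557). Under the osteocyte scaling all 4 passed (0.0482 to 0.0491), where 0.348% of all genes were called lower and 1.95% higher. Under the osteoblast scaling 0.0774% of all genes were called lower and 2.5% higher, the latter with Aspn at 1.64 (adjusted p = 0.046).

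Frontal library 2 stood nearest to the parietal libraries in these 4 genes. Its Dcn, Lum, Omd and Ogn levels were above those of frontal libraries 1 and 4. Osteoblast markers held 3.59% of its counts, beside 1.43 and 1.37% for the other frontal libraries, 1 and 4. Parietal libraries 2 and 4 held 3.09 and 3.30%. Markers of periosteum, tendon and fibroblasts held 0.213% of it, beside 0.118 and 0.157% in the other frontal libraries, 0.257 and 0.272% in the parietal libraries and 0.184 to 0.219% in femur. Bglap, the osteoblast gene for osteocalcin, whose near-identical copies make its counts uncertain, was at 1605 CPM in femur, 592 in frontal and 1533 in parietal bone. The part of these cell types in the differences was not tested. Without frontal library 2, all 4 genes still passed as lower in frontal than in parietal bone.

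**Figure D3:**
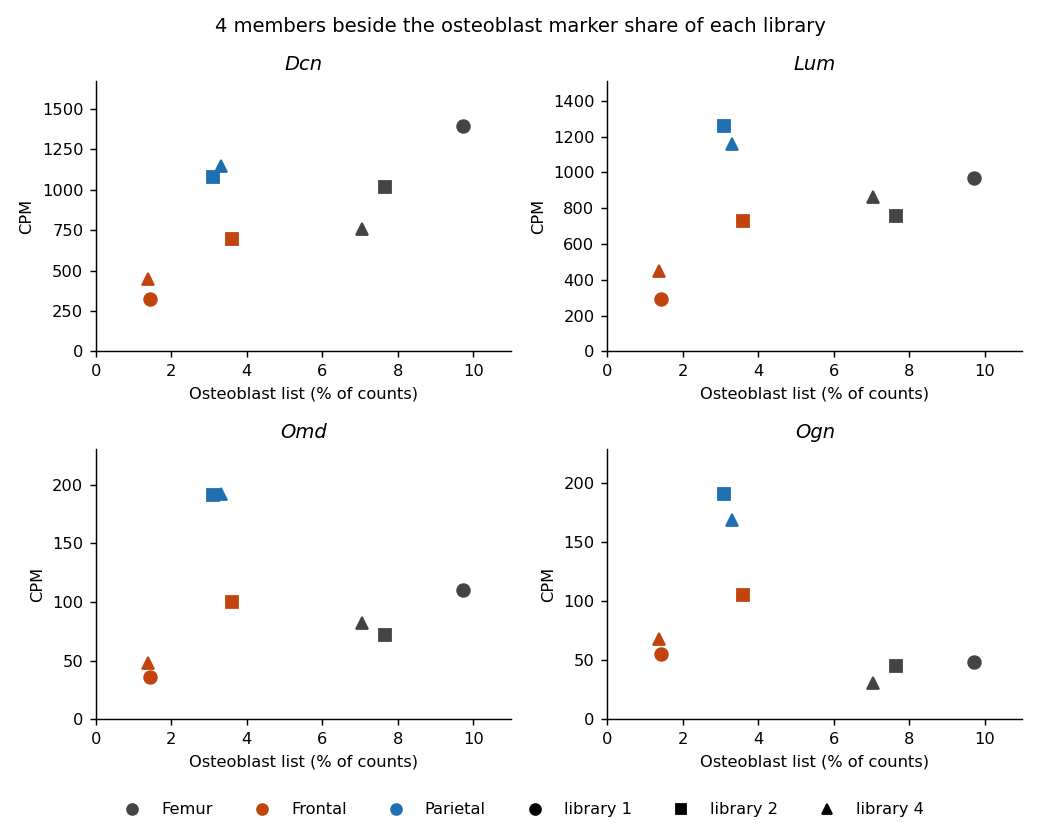
CPM of Dcn, Lum, Omd and Ogn (y axes) against the share of counts in 19 osteoblast markers (x axis, %) in the 8 libraries. Frontal libraries 1 and 4 have the lowest osteoblast shares and the lowest Dcn, Lum and Omd, but more Ogn than any femur library. Frontal library 2 has an osteoblast share of 3.59%, like the parietal libraries, with lower levels of all 4 genes than these. The femur libraries have the highest osteoblast shares, 7.04 to 9.72%, and the lowest Ogn.

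Markers of marrow stroma and adipocytes, like Ogn, were lowest in femur, with 0.157 to 0.188% of counts, and highest in parietal bone, with 0.320 to 0.322%. Frontal libraries held 0.234 to 0.300%. The defining gene Cxcl12, the most abundant of these markers, weighed most in that share, and was at 655, 1418 and 1686 CPM in the 3 bones. Of the 12 tested markers 6 were called higher in calvaria and 3 lower, beside 29.6 and 31.4% of all genes. Those called lower were Foxc1 (-1.82), Cidec (-3.90) and Kitl (-0.82). Tnmd, the tendon gene for tenomodulin, was at 6.82, 7.42 and 19.3 CPM, while Postn, a periosteal gene, was at 386, 93.6 and 145 CPM. Cartilage markers, lower in calvaria as Fmod was, held 0.0519 to 0.126% of femur counts and 0.00357 to 0.00773% of calvarial counts. Within the femur they did not follow Fmod, since library 4 had the most Fmod and the smallest cartilage share. Their defining gene Acan was at 1.78, 0.0956 and 0.163 CPM. Muscle markers held at most 0.00280% of any library. Endothelial markers held 0.0619 to 0.0728% in femur and 0.0278 to 0.0373% in calvaria, and immediate early genes 0.634 to 0.681% and 0.156 to 0.234%. The part of any of these in the members' values was not tested.

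Ratios of 2 members within a library do not depend on how libraries are scaled, and 5 pairs were compared. For each, the log2 ratios of the 5 calvarial and 3 femur libraries were compared by exact permutation (two-sided), which cannot give a p below 0.0179. Fmod and Ogn recur among these pairs, so the pairs are not independent results. The share of all gene pairs whose ratio separates calvaria from femur was not computed. The ratio of Ogn to Omd counts was 0.441, 0.622 and 0.374 in femur, 1.53, 1.05 and 1.42 in frontal bone and 0.997 and 0.875 in parietal bone. Each of the 5 calvarial ratios exceeded every femur ratio (difference 1.29 in log2, p = 0.0179, adjusted p = 0.0446 over the 5 pairs, exact permutation). These 2 neighbours on chromosome 13 thus changed unequally.

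Prelp had 0.112, 0.139 and 0.102 counts per count of Fmod in femur. The ratio was 3.00, 1.10 and 0.907 in frontal bone and 1.15 and 1.03 in parietal bone, so its calvarial range lay wholly above that of the femur. The difference was 3.45 in log2 (p = 0.0179, adjusted p = 0.0446, exact permutation).

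Fmod counts were 0.0494, 0.0423 and 0.0636 of those of Lum in femur, 0.0118, 0.00513 and 0.0235 in frontal bone and 0.00443 and 0.00285 in parietal bone. All calvarial ratios lay below the femur ratios (difference -2.83, p = 0.0357, adjusted p = 0.0446, exact permutation). Aspn to Ogn behaved alike, with 0.514, 0.360 and 1.65 in femur, 0.188, 0.0618 and 0.311 in frontal bone and 0.0470 and 0.0329 in parietal bone (difference -2.91, p = 0.0357, adjusted p = 0.0446, exact permutation). Bgn to Dcn was 0.666, 0.685 and 0.915 in femur, 0.795, 0.381 and 0.536 in frontal bone and 0.228 and 0.220 in parietal bone. Frontal library 1 lay within the femur range, and the difference of -0.97 did not pass (p = 0.107, exact permutation).

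**Figure D4:**
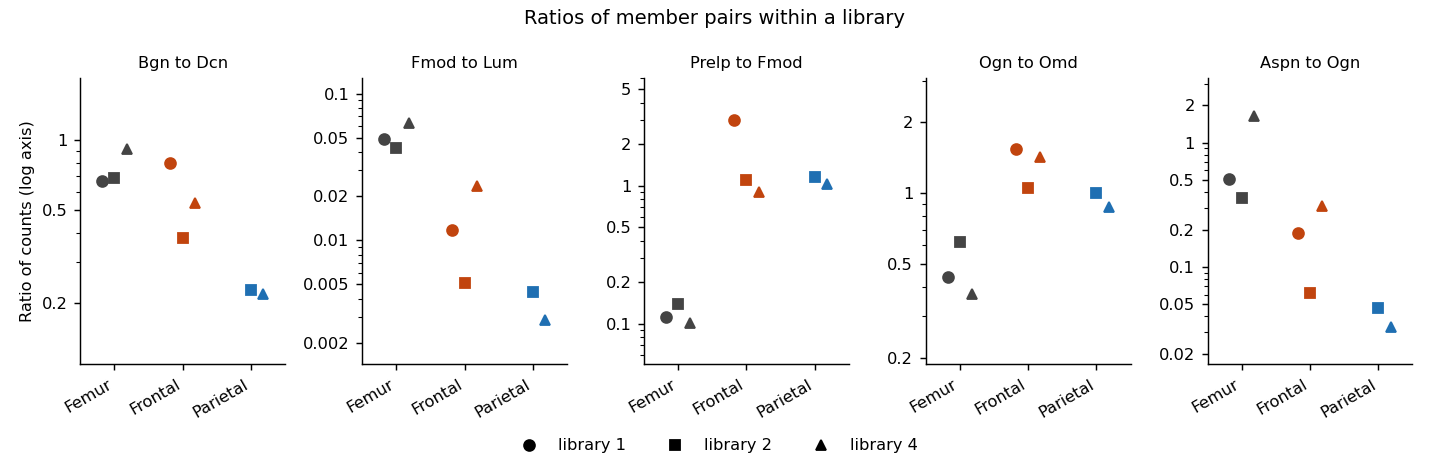
Ratio of counts of 2 members within each library (log axis) for 5 pairs, by bone. The femur libraries stand apart from all 5 calvarial libraries in 4 pairs, each of which holds Fmod or Ogn. In Bgn to Dcn frontal library 1 lies among the femur libraries.

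The make-up of the family per kilobase changed accordingly. Bgn made up 23.0, 23.2 and 24.7% of the summed CPM per kilobase in femur, 23.2, 12.3 and 16.6% in frontal bone and 7.30 and 7.53% in parietal bone. Ogn made up 1.13, 1.40 and 1.03% in femur and 4.39 to 5.31% in the 5 calvarial libraries. The share of Dcn lay between 37.1 and 47.6% in all 8 libraries.

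**Figure D5:**
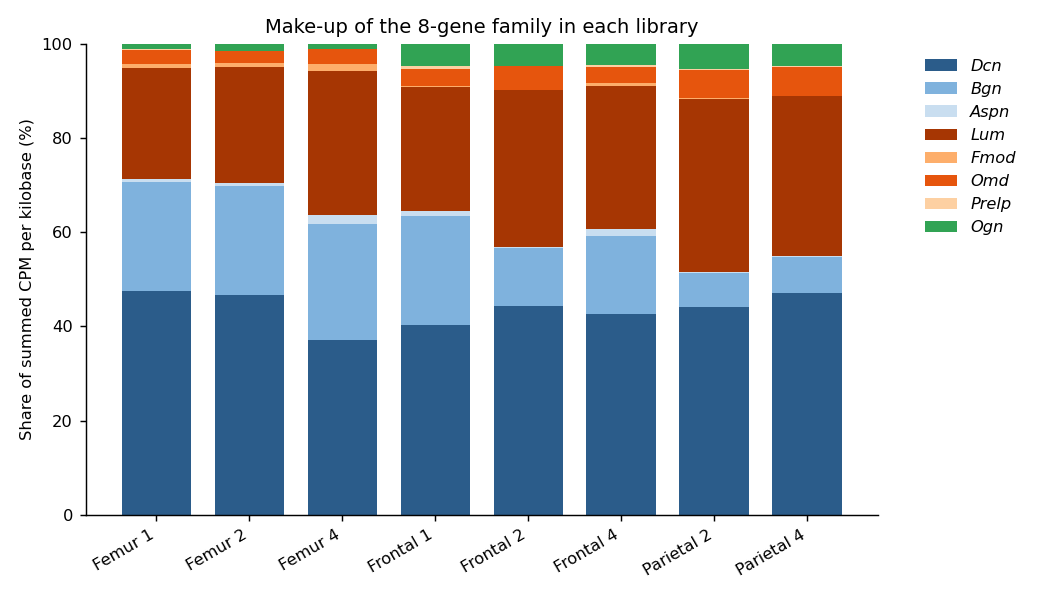
Share of each member in the summed CPM per kilobase of the 8 genes (y axis, %) in each library. Dcn, Bgn and Lum fill most of every bar, Bgn narrows to 7.30 and 7.53% in the parietal libraries, and Ogn widens from at most 1.40% in femur to at least 4.39% in calvaria.

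Over the 8 libraries the members fell into groups that are described here without a test. Dcn, Lum and Omd varied together, with Pearson correlations of log2 CPM of 0.93 (Dcn and Lum), 0.95 (Lum and Omd) and 0.83 (Dcn and Omd). Bgn and Fmod had a correlation of 0.93, and Fmod and Aspn 0.89. Ogn and Aspn, neighbours of Omd on either side, had -0.83. These points share libraries and the difference between bones.

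Among 10375 other genes, those whose log2 CPM correlated most with each member over the 8 libraries were Mlip (0.99) and Nek7 (0.99) for Dcn, Slc41a2 (0.999) and Ppp1r2 (0.997) for Bgn, and Cwc25 (0.96) and Traf1 (0.95) for Aspn. For Lum they were Fam114a1 (0.98) and Lamp2 (0.98), for Fmod Tnfrsf22 (0.99) and Ippk (0.99), for Omd Fkbp7 (0.98) and Sdc2 (0.98), for Prelp Eya3 (0.97) and Mtx1 (0.96), and for Ogn Tmem167 (0.99) and Dld (0.99). Sdc2, the proteoglycan syndecan-2, was at 119, 95.9 and 153 CPM in femur, frontal and parietal bone. High values are easy to reach with 8 libraries from 3 bones.

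Of 10 other genes of the family, 5 had enough counts to test. Chad, the cartilage protein chondroadherin, fell by 5.19 on the log2 scale in calvaria (SE 0.62, adjusted p = 3.0e-05 by edgeR), from 12.5 ± 11.1 CPM (SD, n = 3) in femur to 0.374 ± 0.217 (n = 5). Podnl1, a podocan-like protein, rose by 1.14 (SE 0.22, adjusted p = 0.0008), from 5.09 to 11.2 CPM. Podn read -0.30 and Ecm2 0.07, and neither passed, nor did Tsku. Optc, Kera, Epyc, Nyx and Chadl had 1 to 38 counts in all 8 libraries together.

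Enzymes that build the sugar chains were lower in calvaria on the TMM scale more often than higher. Of 23 tested genes for the linker and for chondroitin or dermatan sulfate, 13 fell and 1 rose (median -0.93, all genes 0.01), beside 31.4 and 29.6% of all genes. Among those that fell, Chsy1 and Chsy3, which extend chondroitin, read -2.26 and -3.43 in log2, the chondroitin polymerizing factor Chpf2 -2.40 and B4galt7, which adds the first galactose of the linker, -1.32. Pxylp1, a phosphatase of the linker xylose, rose by 0.53. With libraries scaled to osteoblast markers 2 of the 23 were lower and 12 higher, where 3.59% of all genes were lower and 75.1% higher. With osteocyte markers these were 1 and 17, beside 2.07 and 91.3% of all genes. The medians of the 23 were then 0.78 and 1.56, below the 1.72 and 2.49 of all genes.

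Of 10 tested genes for keratan sulfate and tyrosine sulfation, 4 fell and 2 rose, near the 31.4 and 29.6% of all genes. Those that fell were B4galt1 (-2.41), the sulfotransferases Chst2 (-2.07) and Chst1 (-1.72), and Tpst2 (-1.31), which sulfates tyrosines. Fut8 and Tpst1 rose by 0.52 and 0.53. Of 10 tested proteases that cut these proteins or their partners, 5 fell and 0 rose, with Mmp14 at -2.45, Mmp2 at -1.81, Bmp1, the procollagen proteinase that also trims the Bgn precursor, at -1.78, and Adamts4 at -1.72. With the osteoblast scaling 0 keratan sulfate genes were lower and 5 higher, and 0 proteases were lower and 6 higher, beside 3.59 and 75.1% of all genes.

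Collagens and other partners that the family binds were mostly lower on the TMM scale. Of 22 tested, 18 were lower in calvaria and 2 higher (median -1.99), beside 31.4 and 29.6% of all genes. Under the osteoblast scaling 7 were lower and 3 higher (median -0.27, all genes 1.72), beside 3.59 and 75.1% of all genes. Of 18 tested osteoblast markers 15 were lower and 0 higher on the TMM scale, beside the same 31.4 and 29.6%. The growth factors Tgfb2 and Tgfb3 read -3.50 and -3.36, Ccn4 -3.26 and Fn1, fibronectin, -1.64. Col1a1, the main collagen chain of bone, was at 20857 ± 3850.2 CPM in femur (SD, n = 3) and 4232 ± 3472 in calvaria (n = 5), and fell by 2.31 (SE 0.73, adjusted p = 0.0297 by edgeR). Of 18 other proteoglycan core proteins 11 fell and 1 rose on the TMM scale, beside 31.4 and 29.6% of all genes. Those that fell were led by Cspg4 at -5.37, Sdc3 at -3.87, Sdc4 at -1.76 and Gpc4 at -1.73. Srgn, the proteoglycan of blood cell granules, rose by 0.44. With the osteoblast scaling 4 of these 18 core proteins were lower and 3 higher, beside 3.59 and 75.1% of all genes.

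Between the skull bones few of these genes passed, and those named were chosen after their values were seen. In frontal against parietal bone Sdc2 read -0.68 on the log2 scale, Tlr4, a receptor for free Bgn and Dcn, -1.06 and Pcolce2, a procollagen enhancer, -2.45, while Xylt1, which starts the linker, read 1.01. Their adjusted p-values were 0.0377, 0.0471, 0.0281 and 0.0387 by edgeR. Of all genes 3.91% were called higher and 3.29% lower in this comparison. These calls did not hold either, since 0 genes were called without femur library 2, without frontal library 1 or with the replicate block.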

How the data were processed

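Bone fractions enriched for osteocytes (3 femur, 3 frontal and 2 parietal samples) were sequenced as paired ends after Nextera XT library preparation, per the labels' protocols. The authors deposited raw counts for 43346 genes and 92 spike-ins, and the latter were left out. The submitters' processing notes name the builds GRCm38.p3 and mm10 and the tools STAR 2.5.2a, limma, DESeq2 and edgeR. How reads were assigned to genes and whether strand was used is not given in the sources used here. Depth was 6259229 to 13461622 gene counts per library.

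edgeR 4.0.16 under R 4.3.3 was used on the counts. filterByExpr kept 15511 genes, all 8 members among them, TMM factors corrected for composition, and 1 robust quasi-likelihood fit with the 3 bones as groups held all 8 libraries (5 residual degrees of freedom, biological coefficient of variation 18.6%). Genes were called at a Benjamini-Hochberg adjusted p under 0.05, with all tested genes in the adjustment. SEs were derived from each log2 fold change and its F value. For the tests of ratios 0.5 was added to each count. Libraries of the same bone differed beyond sampling noise in every pair (chi-square per degree of freedom at least 7.16). The edgeR step was tested on simulated data.

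Alternatives were DESeq2 1.42.0, limma 3.58.1 with voom, other scalings, no filter, a block on the replicate number, each library left out, only the 2 bones compared and, chosen after seeing the data, removal of the trend on gene length and GC content. The members and gene lists were chosen with earlier results of these data known. Named genes were all members, the 4 genes of each list on the biology of these proteins with the smallest p in calvaria against femur, defining markers of cell lists, and the 2 genes most correlated with each member among genes of at least 5 CPM. Other genes named (Pxylp1, Fut8, Tpst1, Srgn, Tsku, Optc, Kera, Epyc, Nyx, Chadl, Sdc2, Tlr4, Pcolce2 and Xylt1) were chosen after their values were seen.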

Additional observations from a re-analysis of the deposited data

Results flagged for a closer look

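On the TMM scale 4 members passed the test of the difference between frontal and parietal bone, which is the difference of their effects against the shared femur libraries. The log2 difference, frontal against parietal, was -1.19 for Dcn, -1.30 for Lum, -1.64 for Omd and -1.23 for Ogn, with adjusted p-values of 0.0401, 0.0318, 0.0321 and 0.0295 by edgeR's quasi-likelihood test. In all 4 genes the 3 frontal libraries lay below the 2 parietal libraries, and the share of all genes that do so was not computed. With a parietal library left out only 1 remains, so no call is given for those runs. None of the 4 passed without femur library 2 or frontal library 1 or 4. None passed with the replicate block, under the osteoblast scaling or with the length and GC trend removed. Of all genes, 0 were called in this comparison without femur library 2, without frontal library 1 or with the replicate block.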

How the results depend on the processing

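The depth of 6259229 counts or more gives Prelp 31 to 87 counts per library and Fmod 29 to 75 in calvaria, and with 5 residual degrees of freedom small differences were not detectable. DESeq2, limma-voom, size factors by RLE and the analysis without a filter moved no count of members called by over 1.5 times and turned no direction. Ogn kept its direction in all 4 comparisons under all alternatives run, as did Fmod against femur. The causes of the changes below were not tested.

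With libraries scaled to the osteoblast list, the median of all genes was 1.72 in calvaria against femur, 2.06 in frontal and 1.39 in parietal against femur, and 0.62 in frontal against parietal. Members called higher and lower were then 5 and 1 in calvaria, 5 and 0 in frontal, 5 and 1 in parietal bone against femur, and 1 and 0 in frontal against parietal, where 75.1, 79.9, 58.8 and 2.5% of all genes were called higher. In calvaria Aspn read 0.072, Bgn 0.13, Dcn 1.21 and Lum 1.51. In frontal bone Aspn read 0.89, Bgn 0.47, Dcn 0.89, Lum 1.13 and Omd 1.38. Prelp read 1.32 in parietal bone. With the osteocyte list, the medians were 2.49, 2.57, 2.41 and 0.13, and 6 and 0, 7 and 0, and 6 and 0 members were called against femur, beside 91.3, 90.7 and 88.7% of all genes higher and 2.07, 1.95 and 1.78% lower. In calvaria Aspn read 0.78, Bgn 0.89, Dcn 1.99 and Lum 2.32. In frontal bone Aspn read 1.24, Bgn 0.97, Dcn 1.46, Lum 1.73 and Omd 2.03, and in parietal bone Aspn read 0.32, Bgn 0.80 and Prelp 2.37.

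With library size only, the median of all genes was 0.11, 0.16, 0.06 and 0.06, and Prelp read 0.0045 in parietal against femur. In frontal against femur 3 members were lower, beside 3825 of 15511 genes. All genes were then called higher and lower 773 and 249 times in frontal against parietal, in place of 607 and 511. Without a filter these counts were 1163 and 741, by DESeq2 1187 and 1038, and without the length and GC trend 49 and 38. Removing that trend left 5 members lower in calvaria, where 4248 of 15511 genes were lower. It left 1 higher in parietal bone against femur, where 4215 genes were higher, and 0 lower in frontal against parietal. It turned Omd in calvaria (-0.33), Dcn (-0.20), Lum (-0.23) and Prelp (0.34) in parietal against femur and Bgn in frontal against parietal (-0.18). Fitted on the 2 bones compared alone, 1 member was lower in frontal against parietal, beside 631 of 14869 genes.

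Whether the replicate numbers pair the samples could not be decided. Same-numbered libraries had correlations of their deviations from the bone mean of -0.10 to 0.15. With 2 parietal libraries such deviations mirror each other, so these values cannot exclude a shared animal or batch. With the replicate block, 0 members (and 0 of all genes) were called in frontal against parietal. In parietal against femur 1 member was higher, beside 3716 of 15511 genes. Bgn then read -0.046 in frontal against parietal and Prelp 0.11 in parietal against femur.

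With each femur or frontal library left out in turn, 15205 to 15503 genes were tested. Members lower in frontal against parietal numbered 0 to 4, beside 0 to 1036 of all genes. In frontal against femur 3 to 5 members were lower, beside 3953 to 4334 genes, and 1 to 2 higher, beside 3530 to 4128. In parietal against femur 1 to 3 were higher, beside 3662 to 4285 genes. With each of the 8 libraries left out, the log2 ratio differences ranged from -3.36 to -2.27 for Aspn to Ogn and -3.26 to -2.50 for Fmod to Lum. They were 1.13 to 1.499 for Ogn to Omd and 3.15 to 3.57 for Prelp to Fmod, with adjusted p-values (exact permutation) up to 0.179. Fewer assignments exist without a library, so the smallest possible p is then above 0.0179. A higher adjusted p there does not by itself mark a weaker ratio. Dcn ranged from -0.12 to 0.28 and Prelp from -0.61 to 0.29 in parietal against femur, and Bgn from -0.0062 to 0.10 and Fmod from -0.27 to 0.83 in frontal against parietal.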
